A study of Gossypium barbadense with 48 samples.

Results

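The genes described here are 150 genes of cotton, *Gossypium barbadense*, whose RNA level was highest at 5 days post anthesis (DPA) in both PimaS-7 and 5917. They were chosen by their FPKM values (fragments mapped to a gene, scaled by its length and the depth of the library) in these same libraries. A gene qualified when its mean FPKM was highest at 5 DPA and reached at least 10 in both cultivars, which 955 of 69337 genes did. The score of a gene was its log2(FPKM + 1) at 5 DPA minus the mean over the other 7 days, averaged over the cultivars, and the 150 highest scores were kept. The peak itself is therefore a property of the selection, and the levels over days are given as a description with no test. The rule also set bounds on the cultivars. A gene had to reach the same minimum and peak on the same day in both, which limits their difference at 5 DPA, and low levels on any other day, 15 DPA included, raised the score. The score averaged the cultivars and so favoured neither. The direction of the difference between them within a day was no criterion, and that difference was tested. Comparisons with lower-scoring candidates are given as descriptions, since the score used the levels on every day.

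PimaS-7 and 5917 are the parents of a recombinant inbred population developed earlier for work on fiber strength. RNA was sequenced at 8 days, every 5 days from 0 to 35 DPA, with 3 libraries for each cultivar and day and 48 in all. By the study's methods, material collected at 0 DPA was whole ovules and that of all later days was fiber, and neither cultivar carried a treatment or a transgene. The methods call the libraries of a group biological replicates and do not say whether they came from separate plants, so p-values measure the spread between these samples.

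A cotton fiber is a single cell that grows out from the outer layer of the ovule around the day of flowering. In the days that follow, the cell no longer divides and elongates fast. It takes up water into a large vacuole, loosens and extends a thin primary wall, and makes the very long chain lipids of its cuticle. Later the cell deposits a thick secondary wall of cellulose. A sampling day of 5 DPA falls in early elongation, and 15 and 20 DPA lie near the passage to wall thickening.

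Library totals ranged from 28222056 to 43390702 counts, with a median of 32756789.5. The lowest mean count of a selected gene at 5 DPA, taken over the libraries of both cultivars together, was 248. In 12 of the 150 genes (8%) the 3 libraries of at least 1 group differed 10-fold or more while the highest reached 10 FPKM, against 1332 of 22591 genes that reached this level anywhere (5.90%). None of these wide groups was at 5 DPA, and 5 genes had more than 1. The sources used here do not say where reads that fit both the A and the D subgenome copy were placed, so the split between copies is uncertain.

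The scores ran from 7.28 to 1.94 with a median of 2.76. At the lower end of the selection, Gbar_A09G017750 and Gbar_D13G007530 scored 1.96 and Gbar_D09G024420 scored 1.94. The first genes outside, Gbar_A11G008650, Gbar_D11G001910 and Gbar_A05G018430, scored 1.94 as well. The last gene inside, Gbar_D09G024420, was at 17.1, 15.5 and 13.6 FPKM at 5 DPA in PimaS-7 and at 18.2, 15.7 and 15.2 in 5917. The first outside, Gbar_A11G008650, was at 22.1, 20.5 and 22.6 and at 16.1, 17.1 and 18. The boundary of the group is thus a cut through a continuous range of scores.

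The selected genes lay on all 26 chromosomes, 73 on the A subgenome and 77 on the D subgenome. Chromosome A05 held 15 of them (10%), where it held 5.61% of all genes and 6.39% of the 955 candidates. D05 held 11 (7.33%, against 5.25% of all genes), and A08 held 1. Their median gene length was 1769.5 bases, between the 1666 of the candidates and the 1923 of all genes, with a range of 168 to 4809.

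At the peak, the median selected gene was at 31 FPKM in PimaS-7 and at 31 in 5917. Of the 150 genes, 24 reached 100 FPKM and 45 reached 50 FPKM in both cultivars, while 34 stayed under 20. The median coefficient of variation over the 3 libraries at 5 DPA was 18.4% in PimaS-7 and 12.1% in 5917. The highest levels averaged over the cultivars, named after the values were seen, belonged to Gbar_A10G016130, Gbar_A12G006120 and Gbar_A02G008530. Gbar_A10G016130 was at 1082 ± 312 FPKM (SD, n = 3) in PimaS-7 and at 1291 ± 191 in 5917. Gbar_A12G006120 was at 582 ± 118 and 1194 ± 117, and Gbar_A02G008530 at 731 ± 167 and 1039 ± 133.

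The 150 genes together took 0.607 to 0.697% of all counts at 0 DPA in PimaS-7 and 0.640 to 0.709% in 5917. Their share was 1.67 to 2.24% and 1.71 to 2.13% at 5 DPA. It was 1.10 to 1.19% and 1.04 to 1.08% at 10 DPA. The ranges of the 2 cultivars overlapped at 0 and 5 DPA, and at 10 DPA they lay close together without overlap. At 15 DPA the share was 0.465 to 0.562% in PimaS-7 and 0.220 to 0.245% in 5917, and the libraries of the cultivars lay far apart. At 20 DPA the ranges overlapped, with 0.270 to 0.314% and 0.267 to 0.295%. From 25 DPA on no library exceeded 0.151%.

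**Figure D1:**
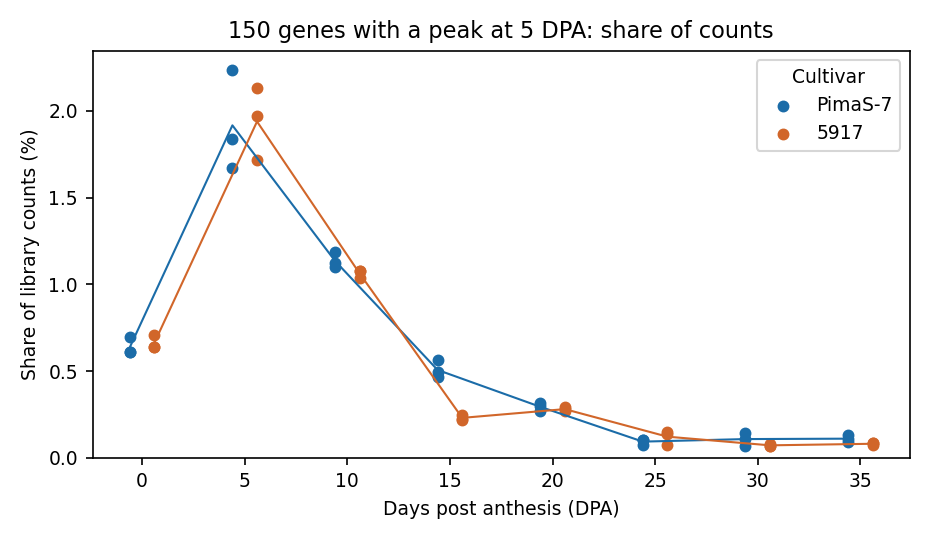
Share of each library's counts (%) taken by the 150 selected genes, against days post anthesis; each point is 1 library, blue for PimaS-7 and orange for 5917, and the lines join the group means. At 15 DPA the PimaS-7 libraries sit between 0.465 and 0.562% and those of 5917 between 0.220 and 0.245%, while the ranges overlap at 5 and 20 DPA.

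Relative to the level at 5 DPA, the median gene stood at 30.0% at 0 DPA in PimaS-7 and at 33.1% in 5917. At 10 DPA it stood at 59.5% and 53.6%. The genes therefore differed in whether their other high day came before or after the peak. Second to 5 DPA, the highest day was 10 DPA in 108 genes of PimaS-7 and 97 of 5917, and 0 DPA in 39 and 50. At 15 DPA the median gene was at 24.5% in PimaS-7 (quartiles 11.8 to 36.2%) and at 7.96% in 5917 (quartiles 2.96 to 14.6%). It was at 10.9% and 10.4% at 20 DPA and between 1.63 and 3.75% at the last 3 days. Levels of 0.5 FPKM or less were found in 5 genes of PimaS-7 and 25 of 5917 at 15 DPA, and in 60 and 72 at 35 DPA.

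**Figure D2:**
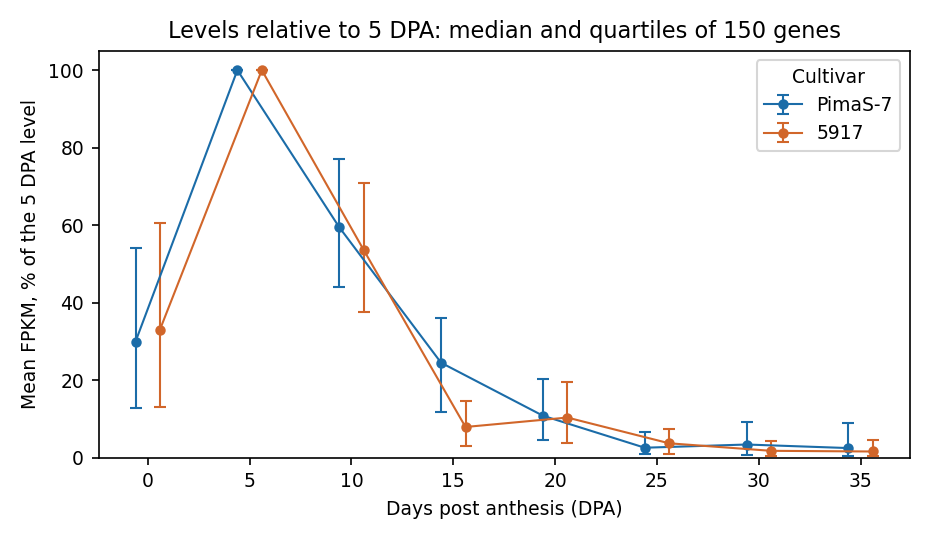
Mean FPKM of the 150 selected genes as a percentage of their 5 DPA level, against days post anthesis; points are the median gene and bars its quartiles over genes, blue for PimaS-7 and orange for 5917. The medians lie close at 10 DPA (59.5 and 53.6%) and 20 DPA (10.9 and 10.4%) and apart at 15 DPA (24.5 and 7.96%).

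Single libraries did not separate the peak day in every gene. All 3 libraries of 5 DPA were above every other library in 87 genes of PimaS-7 and 99 of 5917. They were above all 0 DPA libraries in 136 and 128 genes, and above all 10 DPA libraries in 99 and 120. On TMM-scaled counts in place of FPKM, the fitted change from 5 to 10 DPA was above 0 in 39 genes of PimaS-7 and 34 of 5917. The order of these neighbouring days thus depended on the scaling in part of the group.

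The highest score belonged to Gbar_D07G016940. Its FPKM was 229, 234 and 209 at 0 DPA in PimaS-7 and 138, 171 and 158 in 5917. At 5 DPA it was 786, 1249 and 953 in PimaS-7 and 718, 851 and 469 in 5917. By 10 DPA it had come down to 92.9, 125 and 93.9 and to 35.4, 22.2 and 19.9, and at 15 DPA to 4.59, 2.39 and 4.22 and to 0.148, 0.542 and 0.330. The cultivars overlapped at 5 DPA and did not overlap at 10 and 15 DPA. The log2 fold change of PimaS-7 over 5917 was 1.81 (SE 0.23, adjusted p = 0.0042) at 10 DPA and 3.10 (SE 0.48, adjusted p = 0.0029) at 15 DPA.

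Next in score came Gbar_A10G006860. It was low in ovules, at 7.16, 7.31 and 8.67 FPKM in PimaS-7 and 9.66, 8.73 and 10.7 in 5917, and stood at 217, 306 and 205 and at 164, 136 and 149 at 5 DPA. At 15 DPA it was at 29.2, 20.2 and 18.2 in PimaS-7 and at 0.422, 0.676 and 0.831 in 5917 (log2 fold change 4.91, SE 0.29, adjusted p = 6.0e-05). At 20 DPA the groups overlapped, with 2.42, 2.98 and 4.65 against 2.47, 1.71 and 1.29. Gbar_D10G006740, the gene 4th in score, carries an ID 2 places from it on the D chromosome of the same number and had much the same course. It was at 81.2, 62.1 and 45.9 in PimaS-7 and 8.18, 7.76 and 6.81 in 5917 at 15 DPA (log2 fold change 2.84, SE 0.21, adjusted p = 0.00014), and at 9.45, 11.3 and 13 against 13.2, 16.9 and 11.5 at 20 DPA. Its 5 DPA values of 253, 333 and 241 and of 212, 356 and 183 overlapped. Whether the pair are copies of 1 gene was not tested.

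The 3rd and 5th scores belonged to genes with unlike behaviour. Gbar_D13G008830 was at 90.1, 110 and 44.3 FPKM at 5 DPA in PimaS-7 and at 209, 234 and 171 in 5917. At 15 DPA the order was the other way, with 11, 5.14 and 5.76 against 1.15, 1.45 and 0.564 (log2 fold change 2.56, SE 0.42, adjusted p = 0.0038). Gbar_D10G012010 was uneven among replicates. At 5 DPA it was at 161, 35.7 and 175 in PimaS-7 and 121, 140 and 88.6 in 5917, and at 0 DPA at 75.7, 71.7 and 85 and at 8.78, 67.0 and 9.46. Its 15 DPA values of 5.82, 5.37 and 8.52 were above the 2.58, 3.10 and 2.13 of 5917 (log2 fold change 1.12, SE 0.24, adjusted p = 0.013).

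The tables used here give a name to 2 of the 150 genes. LTL1 (Gbar_D08G024040, Pima 3-79 genome HAU v2.0, chromosome D08, positions 62196949 to 62200225, plus strand, rank 53) is annotated as a GDSL esterase/lipase, a family of enzymes that cleave ester bonds in lipids. It was at 11.5, 12.4 and 11.1 FPKM at 0 DPA in PimaS-7 and at 7.87, 8.72 and 6.76 in 5917. At 5 DPA it was at 21.5, 26.2 and 26 and at 14.3, 14.7 and 9.39, and these groups did not overlap but missed the threshold (log2 fold change 0.76, SE 0.22, adjusted p = 0.077). At 15 DPA PimaS-7 held 1.15, 2.23 and 1.38 and 5917 held 0, 0.148 and 0, from 73, 152 and 109 counts against 0, 10 and 0. The log2 fold change was 4.72 (SE 0.95, adjusted p = 0.0091). With these counts the gene passed the filter on low counts through PimaS-7, the cultivar where it was high, so its call is given as a description. RNA of this lipase gene was found in the 3 PimaS-7 libraries and in 1 of 5917.

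DRB2 (Gbar_D08G022120, chromosome D08, positions 59826657 to 59829463, plus strand, rank 132) is annotated as a double-stranded RNA-binding protein, of a family that in *Arabidopsis* acts with the enzymes that cut small RNAs. At 5 DPA it was even, at 30.2, 28.2 and 25.0 FPKM in PimaS-7 and 26.1, 25.5 and 30.7 in 5917 (log2 fold change -0.08, adjusted p = 0.76). On other days the libraries of a group fell apart. At 0 DPA it was at 21.9, 24.7 and 1.41 in PimaS-7 and at 5.68, 1.01 and 13.5 in 5917, and at 20 DPA at 13.9, 1.57 and 1.55 and at 2.72, 14.6 and 2.18. In 4 groups its libraries differed 10-fold or more, and it was called between the cultivars at no day. Its score therefore rests in part on libraries that disagree.

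**Figure D3:**
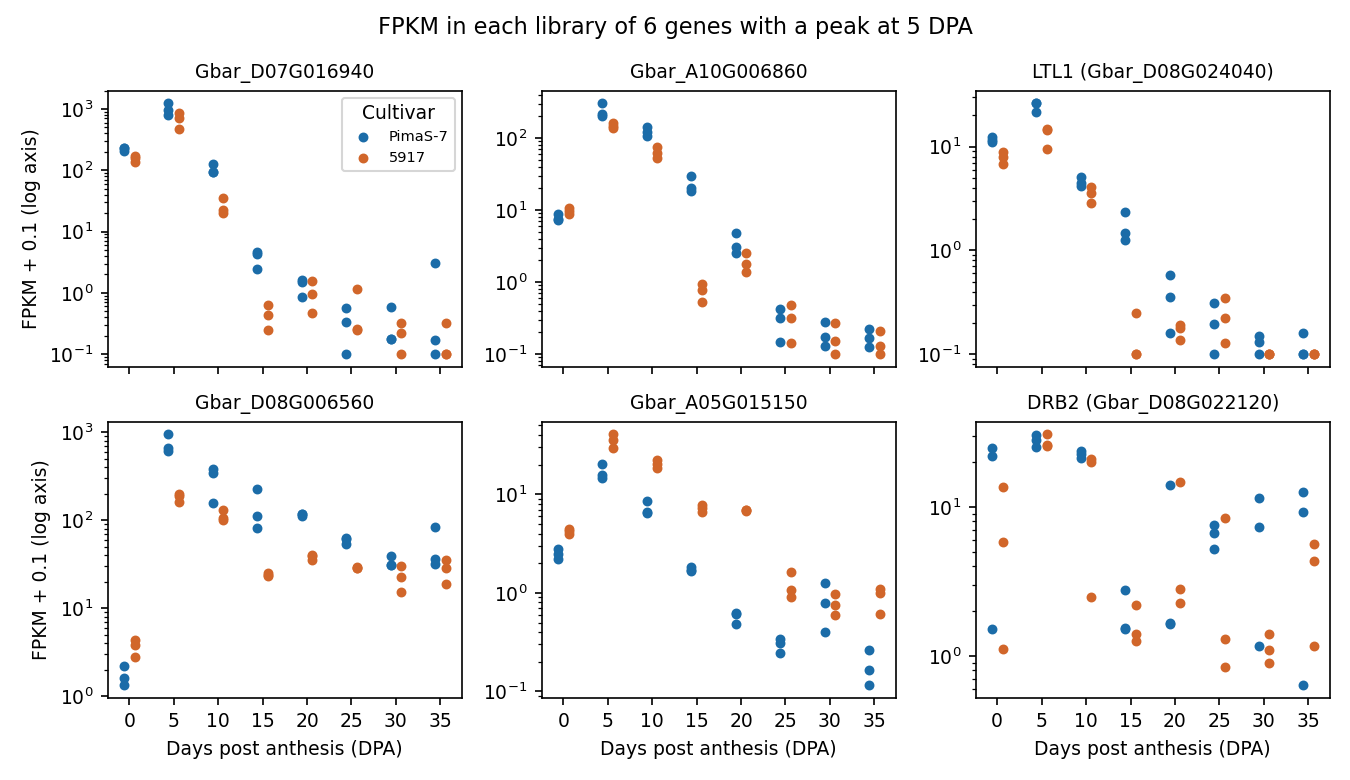
FPKM plus 0.1 on a log axis against days post anthesis for 6 selected genes, with 1 point per library, blue for PimaS-7 and orange for 5917. Gbar_D07G016940, Gbar_A10G006860 and LTL1 show the cultivars apart at 15 DPA (18.2 to 29.2 against 0.422 to 0.831 FPKM in Gbar_A10G006860), Gbar_D08G006560 and Gbar_A05G015150 show them apart in opposite directions at 5, 15 and 20 DPA, and DRB2 shows replicates that split.

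The first comparison asked whether the cultivars differed in these genes at the peak itself. Calls required an adjusted p no higher than 0.05 in edgeR's quasi-likelihood test together with a log2 fold change of 1 or more in size, counted as positive where PimaS-7 was higher. At 5 DPA all 150 genes were tested, and 2 were higher in PimaS-7 and 7 in 5917. Among all genes tested 1.87% were called higher in PimaS-7 and 3.02% in 5917, and the other 805 candidates with a peak at 5 DPA had 1 and 1. The group's counts thus lay near those of all genes and above those of the other candidates. The median log2 fold change of the group was -0.16, against 0.06 over all genes, and on log2(FPKM + 1) the medians were 0.00 and 0.17. The count rested on single libraries. It was 3 of 150 without 5917 replicate 1 or without PimaS-7 replicate 1, 4 without 5917 replicate 2 and 5 without PimaS-7 replicate 3. With each library left out in turn it ranged from 3 to 13, and DESeq2 on all 6 libraries called 15.

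Both genes higher in PimaS-7 at 5 DPA were also called at later days. Gbar_D08G006560 was at 657, 943 and 611 FPKM in PimaS-7 and 188, 198 and 160 in 5917 (log2 fold change 1.86, SE 0.26, adjusted p = 0.0066). In ovules it was near the bottom of its range, at 1.24, 2.12 and 1.51 and at 2.67, 3.71 and 4.32. It was higher in PimaS-7 at 5, 10, 15, 20 and 25 DPA, with 224, 81.6 and 112 against 24, 23.3 and 25.3 at 15 DPA and 118, 117 and 112 against 39.9, 35.4 and 38.7 at 20 DPA. Gbar_A07G016460 was at 27.4, 26.2 and 39.5 in PimaS-7 and 13.6, 11 and 12.3 in 5917 (log2 fold change 1.15, SE 0.17, adjusted p = 0.0085). It was also higher at 15 DPA, with 3.24, 2.30 and 2.13 against 0.144, 0.0761 and 0.144.

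Of the 7 genes higher in 5917 at 5 DPA, Gbar_A05G015150 kept its direction longest. It was at 14.5, 19.9 and 15.4 FPKM in PimaS-7 and 35.8, 40.5 and 29.6 in 5917 at 5 DPA (log2 fold change -1.25, SE 0.23, adjusted p = 0.017). At 15 DPA it was at 1.62, 1.73 and 1.56 against 6.56, 7.63 and 7.11 (log2 fold change -2.33, SE 0.11, adjusted p = 3.3e-05). At 20 DPA it was at 0.387, 0.517 and 0.518 against 6.77, 6.73 and 6.85 (log2 fold change -3.92, SE 0.18, adjusted p = 3.6e-05). In all it was called at 6 of the 8 days, always higher in 5917.

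Gbar_D12G019630 was at 42, 52.1 and 42.8 in PimaS-7 and 106, 110 and 99.0 in 5917 at 5 DPA (log2 fold change -1.37, SE 0.19, adjusted p = 0.0069). This gene turned at 15 DPA, where PimaS-7 held 26.1, 26.8 and 21.9 and 5917 held 9.33, 8.02 and 13.6 (log2 fold change 1.06, SE 0.19, adjusted p = 0.0053). Gbar_D13G008830, described above, lay at the edge of the threshold at 5 DPA (log2 fold change -1.48, SE 0.37, adjusted p = 0.04995). Gbar_D06G019760 was at 22, 24.1 and 13.2 against 42, 42.7 and 39 (log2 fold change -1.21, SE 0.27, adjusted p = 0.034). Gbar_D11G032160 was at 36.7, 49.8 and 40.2 against 84.4, 61.2 and 123 (log2 fold change -1.23, SE 0.26, adjusted p = 0.029). It too turned at 15 DPA, where PimaS-7 held 25.6, 75 and 4.13 and 5917 held 0, 0 and 0.0928. The ratio of their counts, 2225 against 3, was 606 after TMM scaling (edgeR's adjustment of library totals), with an interval of 207 to 2942 that covers counting error only and not the 10-fold spread in PimaS-7.

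The difference between the cultivars was largest at 15 DPA. Of 146 genes tested, 91 were called higher in PimaS-7 and 2 higher in 5917, or 62.3% and 2 genes. Over all genes tested 8.21% were higher in PimaS-7 and 4.40% in 5917. The median log2 fold change of the group was 1.27 (quartiles 0.73 to 2.13), against 0.04 over all genes, and 135 of the 146 were above 0. The median selected gene was at 5.86 to 7.67 FPKM in the PimaS-7 libraries and at 2.21 to 2.65 in those of 5917. In 122 genes the 3 PimaS-7 libraries were all above the 3 of 5917, which held for 35.2% of all genes tested, and in 3 the order was the reverse, which held for 13.2%. All 91 called genes were among the 122. Of the 91 genes, 79 held 10 or more counts in each of the 6 libraries, and the others, LTL1 among them, had fewer in a library of 5917. The other 805 candidates had 33 called higher in PimaS-7 (4.10%), 1 called higher in 5917 and a median of 0.06.

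These counts moved little with the choice of libraries. With each library left out in turn, 84 to 93 genes were called, and without the 12 genes of wide spread 84 were higher in PimaS-7 and 1 in 5917. DESeq2 called 92. The 15 DPA difference was found both in genes that had been high in ovules and in genes that had not. Of 24 genes under 10% of their peak at 0 DPA in both cultivars, 14 were higher in PimaS-7 (median 1.41). Of 33 genes above 50% of their peak at 0 DPA in both, 20 were (median 1.18). Of the 93 other genes, 89 were tested, with 57 higher in PimaS-7, 2 higher in 5917 and a median of 1.32.

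**Figure D4:**
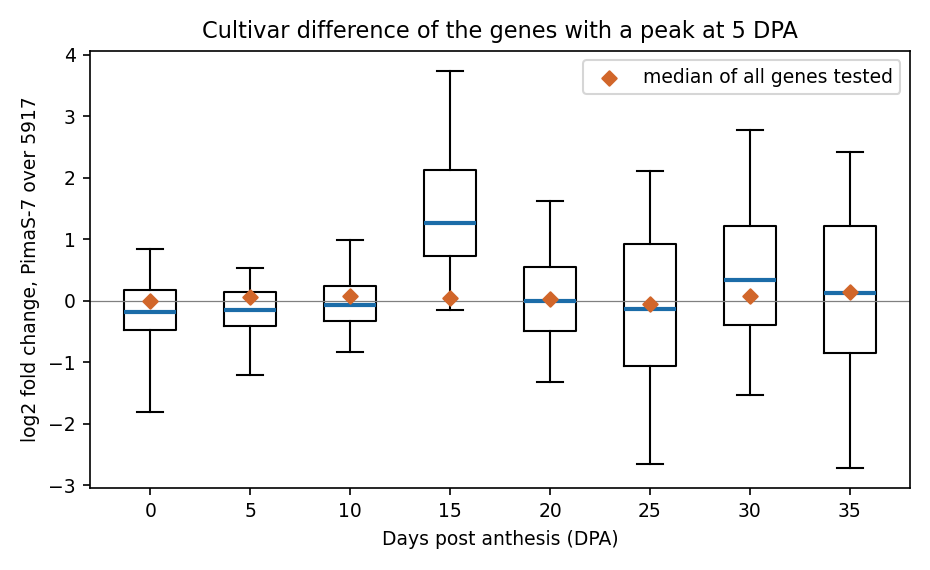
Log2 fold change of PimaS-7 over 5917 for the selected genes at each sampling day; boxes are quartiles over genes with the median in blue, whiskers reach the 5th and 95th percentiles, and diamonds mark the median of all genes tested. The box at 15 DPA (median 1.27, quartiles 0.73 to 2.13) lies above 0 whole, while the medians of the group lie between -0.19 and 0.34 on the other days.

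Gbar_A06G006030 shows the 15 DPA difference in a gene that was even before. It was at 35.6, 31.6 and 31.2 FPKM at 5 DPA in PimaS-7 and at 41.2, 40.1 and 35.1 in 5917, and at 20.0, 23.1 and 18.3 and at 22.1, 18.7 and 23.9 at 10 DPA. At 15 DPA it was at 1.75, 0.490 and 0.377 in PimaS-7 and at 0, 0 and 0.0198 in 5917. The counts of 258 against 3 give a ratio of 70.3 on the same scaling, with a counting interval of 23.8 to 343. Like LTL1, the gene passed the filter on low counts through PimaS-7, so its call at 15 DPA is given as a description. Gbar_D05G003430, chosen under the rule for the later interaction, was even as well, at 36.9, 37.1 and 32 against 35.5, 38.1 and 32 at 5 DPA. At 15 DPA it was at 3.37, 3.0 and 2.02 against 0.0638, 0 and 0.112. Gbar_A13G015000 had too few counts at 15 DPA to be tested. Its 149 counts in PimaS-7 against 0 in 5917 make it at least 40.6-fold higher in PimaS-7, taking 3 counts for the whole group as the floor, and no count of it was found in either cultivar from 20 to 30 DPA.

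The 2 genes higher in 5917 at 15 DPA were Gbar_A05G015150, given above, and Gbar_D05G010690. The latter was uneven, at 3.25, 0.345 and 0.391 FPKM in PimaS-7 and 8.17, 4.32 and 16.2 in 5917 (log2 fold change -3.04, SE 0.85, adjusted p = 0.033). At 20 DPA it was at 52.5, 54.0 and 59.9 against 0.511, 0.401 and 0.214 (log2 fold change 6.88, SE 0.25, adjusted p = 1.8e-05). At 10 DPA it was under 0.5 in all 6 libraries, and it returned to 18.6 to 107 at 25 DPA in both cultivars. It is 1 of the 12 genes of wide spread.

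Other genes also differed between the cultivars at 15 DPA, and their levels stand here beside the result. Over the 12 lists of named genes, 6 of 51 tested were called higher in PimaS-7 and 12 lower, against 8.21% and 4.40% of all genes. Expansins and xyloglucan enzymes summed to 7.51 to 9.85 FPKM in PimaS-7 and 35.9 to 53.2 in 5917. Of 4 tested, 3 were called lower in PimaS-7 and none higher. Of 4 primary wall cellulose genes tested 1 was called lower and none higher. The 6 genes of the secondary wall list summed to 9.33 to 11.5 FPKM in PimaS-7 and 34.8 to 42.5 in 5917, and 3 of 4 tested were lower in PimaS-7. Among them MYB86, named for a MYB factor that acts in secondary wall formation, was at 0.00927 ± 0.016 against 18.7 ± 2.10 FPKM (SD, n = 3). TBL43, of a family that acetylates wall polysaccharides, was at 0.0904 ± 0.0896 against 2.99 ± 0.467, and the wall regulator MYB61 at 0.459 ± 0.24 against 1.41 ± 0.24. The list of cuticle and very long chain lipid genes summed to 165 to 171 in PimaS-7 and 110 to 123 in 5917. In this list 3 genes were called higher and 3 lower in PimaS-7. HTH and PAS2, its genes of highest FPKM, were not called, with log2 fold changes of 0.19 and 0.12. Cell division and histone genes summed to 47.1 to 50.2 against 39.7 to 46.1, with 1 of 8 tested called, higher in PimaS-7. Markers of tissues other than fiber were looked at as well. Ovule and embryo genes summed to 3.16 to 3.84 against 1.37 to 2.06, and none of the 3 tested of 7 was called. Seed coat flavonoid genes summed to 156 to 198 against 46.5 to 111, and of the 2 tested ANT17 was called higher and C1 lower in PimaS-7. The photosynthesis sums overlapped, at 1.30 to 2.55 against 2.41 to 3.4, and 1 of 2 tested, PSBW, was called lower. The median log2 fold change was 0.78 in the cell division list and 0.90 in the ovule and embryo list. It was 0.02 in the seed coat list and -0.62 in the photosynthesis list. The part of these listed genes in the result was not tested. In bulk tissue, fewer cells of a type and less RNA per cell cannot be told apart.

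The change over time was then compared between the cultivars, as an interaction of cultivar and day fitted on 12 libraries. From 0 to 5 DPA 4 of the 150 genes had a larger step in PimaS-7 and 4 a smaller one, against 0.483% and 1.17% of all genes. From 5 to 10 DPA none was called by edgeR's quasi-likelihood test, where 0.0579% of all genes had a larger and 0.0270% a smaller step in PimaS-7. At an unadjusted p under 0.05 there were 23, against 8.85% of all genes, and DESeq2 called 2 and limma 1, against 0.705% and 0.289% of the genes each tested. From 5 to 15 DPA, a comparison added after the data were seen, 92 genes had the higher step in PimaS-7 and 1 in 5917, against 6.53% and 1.86% of all genes. The median was 1.56, against 0.14 over all genes, and the other candidates had 41 (5.09%) and 0. It uses the same 15 DPA libraries as the comparison within that day and is no second line of evidence. All 150 genes were tested, since the 5 DPA libraries that the selection used let each pass the filter on low counts. Calls of genes near 0 at 15 DPA are thus given as descriptions. The fit of all 48 libraries called 55.

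Of the genes whose step from 0 to 5 DPA was larger in PimaS-7, Gbar_D10G006250 was at 0.108, 0 and 0 FPKM at 0 DPA in PimaS-7 and 0.436, 0.874 and 1.41 in 5917. At 5 DPA it was at 22.5, 36.8 and 27.3 and at 21.7, 23.7 and 20.0. The groups thus overlapped at the peak and not in the ovules, where levels were low, and the gene was called between the cultivars at neither day. Gbar_D08G006560 and Gbar_A13G015000 were called as well. The latter was at 5.72, 6.58 and 6.65 at 0 DPA in PimaS-7 and 25.7, 25.0 and 15.5 in 5917, and at 31.7, 35.0 and 33.5 and at 23.4, 19.9 and 31 at 5 DPA. Of those with a smaller step, Gbar_D09G011880 was at 33.7, 27.3 and 39.3 and at 16.7, 12.8 and 21.6 at 0 DPA, and at 39.9, 32.8 and 30.9 and at 68.5, 76.3 and 54.1 at 5 DPA, so the order of the cultivars turned (log2 difference of the steps -2.09, SE 0.32, adjusted p = 0.014). Gbar_A12G027740 turned in the same way, with 60.8, 65.9 and 102 against 43.7, 39.8 and 43.3 at 0 DPA and 164, 170 and 115 against 298, 378 and 213 at 5 DPA. Leaving out single libraries left 4 to 13 genes in this interaction.

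After 15 DPA fewer of the genes differed. At 20 DPA 141 genes were tested, with 15 higher in PimaS-7 and 11 in 5917, against 6.33% and 2.58% of all genes, and the median log2 fold change was 0.00. The other candidates had 10 and 4. From 15 to 20 DPA the mean FPKM was higher at the later day in 122 of the 150 genes in 5917 and in 16 in PimaS-7. The median ratio of 20 to 15 DPA was 1.28 in 5917 and 0.460 in PimaS-7. The same counts and ratios were not taken over all genes, so these describe the group alone. In the interaction from 15 to 20 DPA, also added after the data were seen, 1 gene had the higher step in PimaS-7 and 71 in 5917, against 3.42% and 3.35% of all genes. The other candidates had 0 and 22. The median was -1.36, against 0.01 over all genes, and the fit of 48 libraries called 39. The median selected gene of 5917 went from 17.6 FPKM at 10 DPA to 2.56 at 15 DPA and 2.99 at 20 DPA, and that of PimaS-7 from 17 to 6.84 and 3.33.

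Some marker lists moved over the same step. In 5917 the secondary wall list went from 34.8 to 42.5 FPKM at 15 DPA to 20.3 to 27.1 at 20 DPA, with MYB86 from a mean of 18.7 to 6.38 and TBL43 from 2.99 to 1.25. The cuticle list of 5917 went from 110 to 123 up to 127 to 140. In PimaS-7 the secondary wall list went the other way, from 9.33 to 11.5 at 15 DPA to 24.2 to 49.3 at 20 DPA, and the cuticle list from 165 to 171 down to 77.5 to 98.8. In 5917 the selected genes were thus higher at 20 than at 15 DPA beside lower secondary wall and higher cuticle sums, and in PimaS-7 the reverse was seen. Not every list did so. The cell division sum of 5917 went from 39.7 to 46.1 up to 48.5 to 59.1. In PimaS-7 it overlapped between the days, at 47.1 to 50.2 and 49.0 to 55.9. The primary wall cellulose sums overlapped between the days in both cultivars. These are levels with no test, and their part in the result was not tested.

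**Figure D5:**
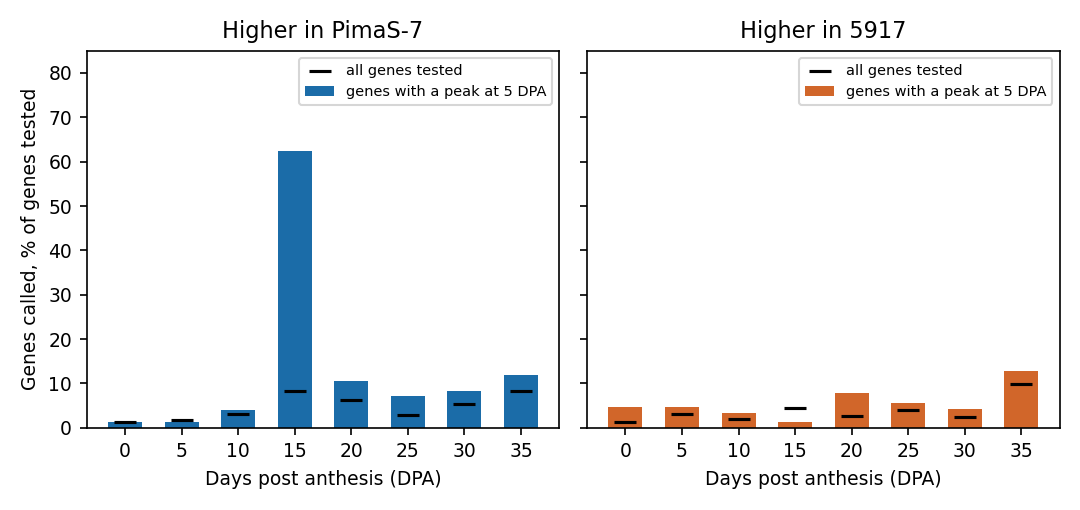
Share of the tested selected genes (bars) and of all genes tested (black dashes), in %, that were called higher in PimaS-7 (left) or in 5917 (right) at each sampling day. The bar of PimaS-7 at 15 DPA reaches 62.3% against 8.21% of all genes, and the other bars stay under 15%.

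On the remaining days few of the genes were called. At 0 DPA 146 genes were tested, with 2 higher in PimaS-7 and 7 in 5917, against 1.24% and 1.26% of all genes, and a median of -0.19. At 10 DPA 149 were tested, with 6 and 5, against 3.09% and 1.99%, and a median of -0.06. At 25 DPA 127 were tested, with 9 and 7, against 2.89% and 4.02%, and a median of -0.13. At 30 DPA there were 119 with 10 and 5, against 5.35% and 2.47% and a median of 0.34, and at 35 DPA 110 with 13 and 14, against 8.32% and 9.89% and a median of 0.12. The other candidates had 1 and 2 called at 0 DPA, 0 and 2 at 10 DPA, 5 and 7 at 25 DPA, 19 and 11 at 30 DPA and 26 and 47 at 35 DPA, of 801 to 805 tested. From 25 DPA on the group was at low levels, and genes that passed the filter on low counts are those still expressed in a cultivar. The counts at these days rested on single libraries. Leaving out 1 library gave 6 to 23 genes at 25 DPA, 3 to 21 at 30 DPA and 10 to 28 at 35 DPA, and 5 to 14 at 10 DPA and 5 to 10 at 0 DPA.

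In ovules Gbar_A09G000870 and Gbar_D01G016190 were the 2 genes higher in PimaS-7. Gbar_A09G000870 was at 45.7, 49.5 and 67.2 FPKM against 25.9, 21.6 and 22.9 (log2 fold change 1.2, SE 0.17, adjusted p = 0.012), and Gbar_D01G016190 at 41.2, 37.1 and 43.4 against 20.2, 18.5 and 19.2 (log2 fold change 1.06, SE 0.11, adjusted p = 0.0033). Among called genes whose groups did not overlap, the strongest difference the other way was in Gbar_D11G030790 and Gbar_D11G030780, which carry consecutive IDs. The former was at 0.710, 3.22 and 3.48 in PimaS-7 and 27.3, 47.7 and 24.6 in 5917 (log2 fold change -3.68, SE 0.46, adjusted p = 0.0067). The latter was at 7.60, 5.04 and 4.50 against 39.2, 71.5 and 31.5 (log2 fold change -3.03, SE 0.36, adjusted p = 0.0060). Both were uneven elsewhere, with 5 and 6 groups whose libraries differed 10-fold or more. At 20 DPA the same library of 5917 stood high in both, at 32.8 and 61.0, while the other two held 0 to 0.171.

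At 10 DPA Gbar_A05G004590 was higher in PimaS-7, at 10.0, 5.75 and 12.7 FPKM against 3.0, 3.79 and 2.50 (log2 fold change 1.43, SE 0.27, adjusted p = 0.018). Gbar_A05G015150 and Gbar_D11G032160 kept the order they had at 5 DPA, with log2 fold changes of -1.74 (SE 0.17, adjusted p = 0.0015) and -1.42 (SE 0.27, adjusted p = 0.018). At 20 DPA Gbar_D07G008150 was at 19.5, 11.2 and 15.4 in PimaS-7 and 1.80, 3.85 and 3.14 in 5917 (log2 fold change 2.22, SE 0.26, adjusted p = 0.0019). Gbar_A09G012090 was at 0.114, 0.231 and 0.187 against 1.13, 1.26 and 0.863 (log2 fold change -2.49, SE 0.33, adjusted p = 0.0031). It had been higher in PimaS-7 at 15 DPA, at 4.08, 3.12 and 2.29 against 0.594, 0.839 and 0.638.

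Late in development some of the genes were found at a level in 1 cultivar. At 25 DPA Gbar_A02G003320 was at 0.504, 0.372 and 0.309 FPKM in PimaS-7 and 2.01, 5.12 and 29.4 in 5917 (log2 fold change -4.59, SE 0.89, adjusted p = 0.025), and Gbar_A09G001730 at 1.15, 0.782 and 0.407 and at 6.21, 9.31 and 37.8 (log2 fold change -4.25, SE 0.71, adjusted p = 0.016). In both the same library of 5917, replicate 3, stood highest. That library was also the highest of its group in the ovule and embryo list, summed at 20.0 FPKM against 12.5 and 5.03 in the other two and 1.72 to 4.06 in PimaS-7, and the part of this in the calls was not tested. Gbar_D09G001560, whose ID lies 4 places from that of Gbar_A09G001730 on the D chromosome of the same number, was at 3.37, 2.45 and 4.61 and at 48.7, 36.2 and 128. In the other direction Gbar_D10G024630 was at 11.3, 9.68 and 6.55 against 1.26, 1.03 and 1.26 (log2 fold change 3.04, SE 0.37, adjusted p = 0.0059), and Gbar_D10G001590 at 1.99, 0.396 and 1.38 against 0.132, 0 and 0.129.

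At 30 DPA Gbar_D07G008150 was at 1.40, 3.10 and 3.24 FPKM in PimaS-7 and 0.0365, 0.0294 and 0.0869 in 5917 (log2 fold change 4.78, SE 0.54, adjusted p = 0.0035). Gbar_D02G017730 was at 0.156, 0.236 and 0.418 in PimaS-7 and listed at 0 in the 3 libraries of 5917. Gbar_A05G041110 was at 10.6, 5.09 and 4.34 against 43.6, 32.5 and 42.6 (log2 fold change -3.02, SE 0.45, adjusted p = 0.0095), and Gbar_D05G013500 at 0.211, 0.635 and 1.09 against 2.99, 1.98 and 2.59. At 35 DPA Gbar_A05G041110 was still apart, at 1.47, 4.08 and 1.65 against 29.5, 24.7 and 24.2 (log2 fold change -3.92, SE 0.49, adjusted p = 0.0048), and Gbar_A05G015150 was at 0.162, 0.0657 and 0.0155 against 0.901, 0.517 and 1.00. Higher in PimaS-7 were Gbar_A13G021210, at 9.18, 3.12 and 5.82 against 0.182, 0.0281 and 0.148 (log2 fold change 4.95, SE 0.57, adjusted p = 0.0037), and Gbar_A01G019930, at 0.504, 1.03 and 1.13 against 0.0161, 0.0600 and 0.0314. From 25 DPA on, genes near 0 in a cultivar, Gbar_D07G008150 and Gbar_A13G021210 among them, pass the filter on low counts through the other. Like that of LTL1, their calls are given as descriptions.

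Over the 8 days, 23 of the 150 genes (15.3%) were called at none, against 66.5% of all genes tested at 5 DPA, and 50 (33.3%) at 15 DPA alone, against 4.23%. Calls at 2 or more days were made in 51, or 34% against 12.3%. In 20 genes the calls went in both directions on different days, or 13.3% against 3.08%. A difference of the same direction at 4 or more days was found in 4 genes (2.67%), against 1.87% of all genes, which is near the background. Besides Gbar_A05G015150 and Gbar_D08G006560 these were Gbar_D06G003670 and Gbar_D07G001560, each higher in PimaS-7 at 4 days. Gbar_D07G001560 was at 7.67, 7.54 and 6.93 FPKM against 0.905, 1.04 and 1.04 at 15 DPA and at 1.98, 6.56 and 11.9 against 0.200, 0.693 and 0.735 at 30 DPA.

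Genes were also numbered in the order of their IDs along each chromosome, and 4 pairs of selected genes had numbers at most 5 apart on the A and D chromosomes of the same number. Gbar_A12G011090 and Gbar_D12G010700 had the same place in that order. The former was at 41.1, 40.2 and 44.7 FPKM in ovules of PimaS-7 and the latter at 1.11, 0.882 and 1.19, against 92.3, 120 and 98.5 and 15.0, 16.3 and 28.2 at 5 DPA. Gbar_A01G016130 and Gbar_D01G016190 both were higher in PimaS-7 at 15 DPA, at 7.05, 7.61 and 9.25 against 1.08, 1.54 and 1.56 and at 17.2, 15.3 and 15.2 against 4.45, 3.96 and 3.07. Gbar_A10G006860 and Gbar_D10G006740, and Gbar_A09G001730 and Gbar_D09G001560, are given above.

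None of the 81 named genes with values in 12 lists of fiber and ovule functions was among the 150. The names come from tables that cover mainly chromosomes D08 and D11, so the lists hold a part of each pathway. The roles given with them are known mostly from *Arabidopsis*. They show what else changed around the peak. From 0 to 5 DPA 14 of 50 tested rose and 6 fell in PimaS-7, where 9.63% of all genes rose and 6.51% fell. In 5917 15 of 52 rose and 10 fell, where 14.4% rose and 10.6% fell. By the study's methods, this step compares ovules with fibers. At 5 DPA cell division genes summed to 172 to 219 FPKM in PimaS-7 and 95.1 to 175 in 5917. No 10 DPA library exceeded 71.3. Ovule and embryo genes summed to 14.3 to 16.6 and 12.1 to 20.6 at 5 DPA. They reached 8.42 at most at 10 DPA, but up to 24.98 at 35 DPA in PimaS-7. Seed coat flavonoid genes summed to 236 to 303 and 464 to 580 at 5 DPA. The part of other tissue in the 5 DPA peak was not tested.

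Vacuolar pumps and aquaporins, which load the vacuole with solutes and let water follow, rose in 7 of 7 tested in PimaS-7 and 6 of 7 in 5917. PIP1-2, a water channel of the cell membrane, went from 74.1 to 224 FPKM in PimaS-7 (log2 fold change 1.78, SE 0.26, adjusted p = 0.0025) and from 85.6 to 247 in 5917 (1.92, SE 0.12, adjusted p = 3.3e-05). VATE, a subunit of the vacuolar proton pump, went from 15.2 to 48.9 and from 20.2 to 87.5. Of the cuticle list 4 rose and 1 fell of 6 in PimaS-7, and 3 rose of 5 in 5917. PAS2, which acts in the elongation of very long chain fatty acids, went from 6.85 to 71.8 and from 7.08 to 90.0 (adjusted p = 0.00018 and 7.3e-06). CYP86A8, of a family that hydroxylates fatty acids for cutin, went from 3.13 to 14.3 and from 2.24 to 24.9. Of the 4 primary wall cellulose genes 2 rose and 1 fell in each cultivar. CESA3, a cellulose synthase of the primary wall, rose from 19.6 to 34.9 and from 22.1 to 60.3, while CSLD3, of a family that acts in wall synthesis of tip-growing cells, fell from 2.37 to 1.00 and from 2.71 to 0.699. Cell division genes fell in 2 of 12 in PimaS-7 and in 7 of 12 in 5917, and none rose. KRP3, an inhibitor of cell cycle kinases, fell from 7.01 to 2.05 and from 7.63 to 1.14.

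From 5 to 10 DPA, when the selected genes were past their peak, 12 listed genes rose and 15 fell of 51 in PimaS-7 and 8 rose and 15 fell of 52 in 5917. Among all genes 9.51% rose and 11.4% fell in PimaS-7, and 8.76% and 14.7% in 5917. Of 7 vacuolar genes tested 4 rose in PimaS-7 and 3 in 5917, of 7 cuticle genes 4 and 2, and none fell. Of 4 primary wall cellulose genes 2 rose in each cultivar. Expansins and xyloglucan enzymes, which loosen the wall, had 1 that rose and 1 that fell of 3 in each, and neither of the 2 pectin enzymes was called. Of these PAE7 missed only the fold threshold in PimaS-7 (log2 fold change 0.96, adjusted p = 0.0046 in edgeR's test). In 5917 its log2 fold change was -0.21 (adjusted p = 0.50). PIP1-2 reached 744 and 617 FPKM and VATE 122 and 144. Cell division genes fell in 10 of 12 in PimaS-7 and in 8 of 12 in 5917. GIF1, a coactivator that promotes cell proliferation in growing organs, went from 35.9 to 4.62 (Gbar_D08G023940) and from 16.3 to 2.22. A second gene of that name, Gbar_D11G027490, fell from 35.2 to 6.66 in PimaS-7. In 5917 it was uneven and not called, at 11.8 ± 12.1 and then 6.79 ± 5.90. TAN, which guides the plane of division, went from 6.02 to 1.26 and from 5.70 to 0.704.

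Between the cultivars at 5 DPA 4 of 51 listed genes were called, each higher in 5917, where 3.02% of all genes were called higher in 5917 and 1.87% in PimaS-7. CSI1, which links cellulose synthase to microtubules, was at 7.38 ± 1.36 FPKM in PimaS-7 and 24.4 ± 3.08 in 5917 (SD, n = 3; log2 fold change -1.86, SE 0.24, adjusted p = 0.0048). ANT17, a leucoanthocyanidin dioxygenase of the flavonoid pathway, was at 243 ± 32.6 and 493 ± 55.9 (adjusted p = 0.017). VHA-H, a proton pump subunit, had a log2 fold change of -1.03 (adjusted p = 0.039). The count was 1 without 5917 replicate 1, 5917 replicate 2 or PimaS-7 replicate 1, 2 without PimaS-7 replicate 3 and 8 without PimaS-7 replicate 2. Summed over the cuticle list, 5 DPA libraries held 100 to 166 FPKM in PimaS-7 and 180 to 215 in 5917, but none of its 6 tested genes was called.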

How the data were processed

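RNA of PimaS-7 and 5917 was measured at 8 days in 3 libraries each. After removal of adapters and reads of low quality, the authors mapped the rest with HISAT2 (version not given in the sources used here) onto the HAU v2.0 assembly of Pima 3-79 and quantified with StringTie. They deposited a whole read count and an FPKM value for each of 69337 genes and library, and a gene length. The program that made the counts and its use of strand are not given in the sources used here. FPKM is scaled by length and depth, so a few very abundant genes can lower the others. All per-sample columns were used (0 left out), and 0 rows lacked a gene name.

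The 150 genes were selected on the deposited FPKM. Levels are FPKM, with mean ± SD over 3 libraries. Tests used the counts, scaled by TMM and filtered by filterByExpr at a minimum of 10 counts, in the quasi-likelihood test of edgeR 4.0.16 under R 4.3.3. A comparison of 2 groups used their 6 libraries and an interaction 12, over all genes, with Benjamini-Hochberg adjustment. Positive values are PimaS-7 over 5917. SE is the absolute log2 fold change over the square root of F. Calls needed an adjusted p no higher than 0.05 and a log2 fold change of 1 or more in size. The code was tested on simulated data. Tables were handled in Python 3.11.15 with pandas 2.3.3 and numpy 2.4.6, and drawn with matplotlib 3.10.9.

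Alternatives were DESeq2 1.42.0, its size factors in edgeR, no filter, a block for the replicate number, log2(FPKM + 1) of genes above 0.5 FPKM in 3 or more libraries in limma 3.58.1, 1 fit of 48 libraries, each library left out, and other settings of the selection. Intervals of count ratios are exact 95% intervals and cover counting error only. The 150 genes and the lists were chosen with earlier results of these data known. The interactions from 5 to 15 and from 15 to 20 DPA, the listed genes at 15 DPA, the count without genes of wide spread, the shares of genes by days called and the count of genes with 10 counts in each library were added after seeing the data.

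Genes named are those with a name in the tables used, the 5 of highest score, the 3 on each side of the limit, and called genes with the largest change and groups that do not overlap. The last are up to 5 in each direction at 5 DPA, 2 at other days and 3 for an interaction, and of each list up to 3 per test. Other names are said in the text to be chosen after their values were seen, or serve as the partner in a pair. Gene set tests and sequences were not used here.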

Additional observations from a re-analysis of the deposited data

Results flagged for a closer look

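Between the cultivars, the step over time differed by an interaction test in 8 of the 150 genes from 0 to 5 DPA, in 93 from 5 to 15 DPA and in 72 from 15 to 20 DPA. The last pair of counts shares the 15 DPA libraries. All values below are the PimaS-7 step minus the 5917 step on the log2 scale from edgeR's quasi-likelihood test on 12 libraries, 3 in each of 4 groups.

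From 0 to 5 DPA the difference was 4.46 in Gbar_D10G006250 (SE 0.84, adjusted p = 0.026), 2.99 in Gbar_D08G006560 (SE 0.37, adjusted p = 0.0059) and 2.10 in Gbar_A13G015000 (SE 0.28, adjusted p = 0.0076). In the other direction it was -2.36 in Gbar_A09G017750 (SE 0.54, adjusted p = 0.0498), -2.09 in Gbar_D09G011880 (SE 0.32, adjusted p = 0.014) and -1.99 in Gbar_A12G027740 (SE 0.39, adjusted p = 0.031). Gbar_A09G017750, a gene at the limit of the selection, was at 14, 15.4 and 6.61 FPKM at 5 DPA in PimaS-7 and at 30.8, 27.5 and 21.7 in 5917. Gbar_D10G006250 was near 0 at 0 DPA in PimaS-7, so its fitted value depends on the prior count.

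From 5 to 15 DPA the difference was 10.45 in Gbar_D11G032160 (SE 1.45, adjusted p = 0.0010), 8.75 in Gbar_A13G015000 (SE 1.95, adjusted p = 0.019) and 6.57 in Gbar_A06G006030 (SE 1.01, adjusted p = 0.0019). These genes held 0 to 3 counts over the 15 DPA libraries of 5917, so the fitted values depend on the prior count and are no bounds. They passed the filter on low counts through libraries where they were high, those of 5 DPA among them, so their calls are given as descriptions. The 1 gene with the lower step in PimaS-7 was Gbar_A05G015150, at -1.03 (SE 0.26, adjusted p = 0.025).

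From 15 to 20 DPA the difference was 9.93 in Gbar_D05G010690 (SE 0.98, adjusted p = 7.9e-05). It was -8.16 in Gbar_D11G032160 (SE 2.04, adjusted p = 0.025), -6.23 in Gbar_D06G006300 (SE 1.73, adjusted p = 0.040) and -4.66 in Gbar_D05G003430 (SE 0.82, adjusted p = 0.0033). Gbar_D06G006300 was near 0 on both days, at 0.450, 0.434 and 0.305 FPKM at 15 DPA in PimaS-7 against 0.0632, 0 and 0 in 5917, so this value also depends on the prior count. Groups of 3 libraries are too small for the test of single outlying samples.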

How the results depend on the processing

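At 15 DPA the count of called genes stayed between 81 and 93 under the alternatives run, with 1 or 2 of them higher in 5917, and between 84 and 93 with each library left out. DESeq2 called 14 genes instead of 9 at 0 DPA, 15 instead of 9 at 5 DPA, 35 instead of 16 at 25 DPA and 27 instead of 15 at 30 DPA. In the interactions it called 18 instead of 8 between 0 and 5 DPA and 2 instead of 0 between 5 and 10 DPA. With 1 fit of all 48 libraries there were 5 at 0 DPA, 3 instead of 11 at 10 DPA, 48 at 25 DPA, 39 at 30 DPA and 53 instead of 27 at 35 DPA. It gave 5, 55 and 39 in the interactions from 0 to 5, 5 to 15 and 15 to 20 DPA, where 8, 93 and 72 were called. With limma on log2(FPKM + 1) the interaction from 0 to 5 DPA held 16 and that from 5 to 10 DPA 1. Of the listed genes 7 instead of 4 were called at 5 DPA by DESeq2. The cause of these moves was not tested.

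The replicate number as a block gave 7 instead of 11 genes at 10 DPA, 13 instead of 9 at 5 DPA, 88 instead of 93 at 15 DPA and 7 instead of 4 listed genes at 5 DPA. It turned Gbar_D10G006740 at 5 DPA from -0.035 to 0.014. The numbers pair no samples by the sources used here, as deviations of same-numbered libraries from their group means had correlations of -0.19 to 0.20 and no day had all pairs above 0.1.

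With each library left out in turn the called genes were 5 to 10 at 0 DPA, 3 to 13 at 5 DPA, 5 to 14 at 10 DPA, 18 to 31 at 20 DPA, 6 to 23 at 25 DPA, 3 to 21 at 30 DPA and, at 35 DPA, 10 to 28. The interactions gave 4 to 13, 0 to 0, 83 to 99 and 61 to 71 genes in the order of their days. Listed genes called ranged from 18 to 22 and 24 to 25 in PimaS-7 and from 20 to 27 and 18 to 25 in 5917 for the steps from 0 to 5 and 5 to 10 DPA, and from 1 to 8 between the cultivars at 5 DPA. Of the 150 genes 131 to 143 were selected again.

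Among genes far from the threshold at 5 DPA, the sign of small log2 fold changes turned. DRB2 (Gbar_D08G022120) was at 0.020 by limma. Gbar_D10G006740 was at 0.18 by limma and ranged from -0.27 to 0.36 with each library left out, and Gbar_D10G012010 from -0.42 to 0.30. The selection itself depended on its settings. TMM-normalized CPM in place of FPKM selected 69 of the 150 genes again, a minimum of 20 FPKM 97 and the fiber days alone 45.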
